A study of Arabidopsis thaliana with 2 samples.

Results

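The Lateral Organ Boundaries Domain (LBD) genes encode plant-specific transcription factors, and 34 of them were followed in the 2 regions of the globular Arabidopsis thaliana embryo. The genes were taken by family name, without Asymmetric Leaves2 (AS2), from a list of locus identifiers, and a gene absent from a library's table was counted as 0. The family was selected on RPKM values of these 2 libraries that were already known, so its values are descriptions and none is tested. The 34 genes stand among 20029 identifiers listed in either library. RefSeq names 8 further loci of the family, AS2 included, that are not on the list.

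Both groups were of the accession Ws-0 at the globular stage, with no treatment or allele named in the labels. Plants 38 to 46 days old, grown at 20 °C, gave siliques of 1.1 to 1.4 cm, and laser microdissection of 5 or 7 μm paraffin sections isolated the regions from embryos 24 to 32 μm wide. The embryo proper, the apical sphere that becomes most of the seedling, and the suspensor, the stalk that joins it to the maternal tissue, gave 1 library each. The sources used here do not say how many seeds or plants each library pools. There is no replicate check, and each ratio below compares these libraries only. The unit is RPKM, the reads of a gene per kilobase of its length and per 1000000 reads of the library, which allows levels of different genes to be compared per length.

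LBD proteins bind DNA through a zinc-finger-like block of 4 cysteines at the start of the LOB domain. Most class I members also carry a leucine zipper-like stretch through which they pair, and this is missing or degenerate in class II. In class I, several genes act downstream of auxin response factors in lateral root founding, others in the vascular cambium, in the boundary between organs and in pollen. In class II, LBD37, LBD38 and LBD39 are known as repressors of anthocyanin and nitrate-response genes. These roles come mostly from roots, leaves and pollen, and not from the globular embryo.

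The cysteine block is the feature that the members share by sequence, and it was found with its usual spacing, gaps of 2, 6 and 3 residues, in 33 of the 34. The exception was LBD3, whose last gap is of 4 residues. A strict leucine repeat with gaps of 6, 3 and 6 residues was found after the start of the domain in 10 of 28 class I members and in 0 of 6 class II members. The coding strand of the block, 45 bases from RefSeq for the Columbia reference (TAIR10.1), is printed 5′ to 3′ for the members that carried the clearest values, with the 4 cysteine codons in capitals. LBD40, LBD42 and LBD39 are class II, the others class I, and LBD30 is the nearest relative of LBD18.
LBD40: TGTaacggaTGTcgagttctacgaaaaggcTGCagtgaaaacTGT
LBD42: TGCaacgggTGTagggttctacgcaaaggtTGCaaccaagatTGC
LBD39: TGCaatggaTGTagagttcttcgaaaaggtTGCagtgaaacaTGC
LBD20: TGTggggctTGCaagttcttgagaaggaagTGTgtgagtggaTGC
LBD19: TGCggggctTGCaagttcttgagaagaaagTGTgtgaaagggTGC
LBD31: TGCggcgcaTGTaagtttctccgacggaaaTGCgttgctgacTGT
LBD18: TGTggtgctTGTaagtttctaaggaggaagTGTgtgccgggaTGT
LBD30: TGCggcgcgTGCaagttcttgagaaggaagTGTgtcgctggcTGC
LBD25: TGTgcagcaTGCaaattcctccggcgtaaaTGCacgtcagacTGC
Among the blocks printed, 26 to 40 of the 45 bases were identical within a class, with 40 between LBD20 and LBD19, and 15 to 25 between the classes, with 15 between LBD40 and LBD20.

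Gene-assigned reads numbered 12716012 for the embryo proper and 7189151 for the suspensor, as recovered from the steps of the deposited values, a ratio of 1.77. Each fold is followed in parentheses by its 95% exact interval from these reads, which covers counting error only, since amplified reads are not independent molecules. A gene is called suspensor-high or embryo-high where the library of that region was at least 2-fold above the other on the scale of log2(RPKM + 1), and measured where it had at least 1 RPKM in either library. The labels were set beside marker genes, which were chosen with earlier results of these data known, so this is no independent check. Of 8 embryo proper markers, 7 were embryo-high and 0 suspensor-high, and 7 of 7 suspensor markers were suspensor-high. So were 8 of 8 measured endosperm markers, with all 10 used summing to 177 RPKM against 18.7, and 9 of 10 measured seed coat markers, with all 12 used summing to 117 against 4.67. Among the measured seed coat markers, only TT1 and TT4 reached 1 RPKM in the embryo proper, so their count rests largely on the filter. The endosperm markers IKU2, MEA, FIS2 and AGL80 also passed it through the suspensor alone. Below the filter, PHE1 was nearly even at 0.936 and 0.828 RPKM, and AGL36 and TTG2 were higher in the suspensor by under 2-fold on that scale. The part of such neighbouring tissue in the values of LBD genes was not tested. In pooled tissue, fewer cells of a type and less RNA per cell cannot be told apart.

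The 34 LBD genes were sparse and uneven in the globular embryo. Of the 34 genes, 18 were listed in at least 1 library, 52.9%, where 72.1% of nuclear protein-coding genes were. A smaller set of 16 reached 1 RPKM in at least 1 library, where 61.2% of nuclear protein-coding genes did. All 6 class II genes were among them, against 10 of 28 class I genes. There were 12 members listed in both libraries, 3 in the embryo proper alone and 3 in the suspensor alone, where 4.84% and 7.01% of nuclear genes were listed in 1 library alone. Among the 34 genes, LBD40 (AT1G67100) dominated both libraries and LBD20 (AT3G03760) came next in the suspensor. LBD35, which is not on the list, was above LBD20 there, at 151 RPKM. With the 8 further family loci, 24 of 42 genes were listed and 22 were measured.

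**Figure D1:**
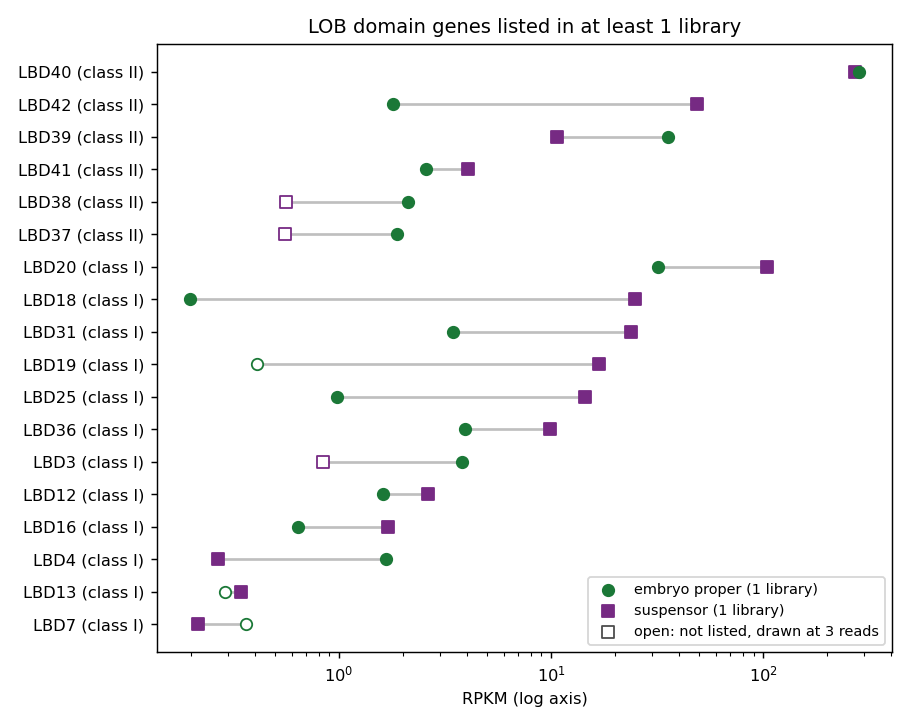
RPKM on a log axis for the 18 LBD genes listed in at least 1 library, with a circle for the embryo proper and a square for the suspensor, 1 library each. Open symbols mark a library that does not list the gene, drawn at the level of 3 reads. LBD40 lies near 283 and 271 RPKM with its symbols together, and LBD18, LBD19 and LBD42 show the widest gaps.

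The measured members were divided between the regions, with more suspensor-high than embryo-high, as was also so among all measured genes. Among the 16 measured members, 7 were suspensor-high, where 29.3% of all 16975 measured genes were. They were LBD18, LBD19, LBD20, LBD25, LBD31, LBD36 and LBD42. Embryo-high members numbered 5, LBD3, LBD4, LBD37, LBD38 and LBD39, where 23.1% of all genes were. The remaining 4 were LBD12, LBD16, LBD40 and LBD41. At 4-fold, the counts were 5 in the suspensor, against 12.3% of all genes, and 1 in the embryo proper, against 8.32%. The median difference, suspensor minus embryo proper, was 0.61 log2 units over the 16 members and 0.13 over all genes.

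These counts rest on members that passed the filter through the library where they were high. Of the 5 in the embryo proper, 3 had 0 reads in the suspensor and 1 had 1 read, and with a pseudocount of 5 RPKM the count was 1. With the 8 further family loci added, 12 of 22 measured genes were suspensor-high and the median was 1.40.

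**Figure D2:**
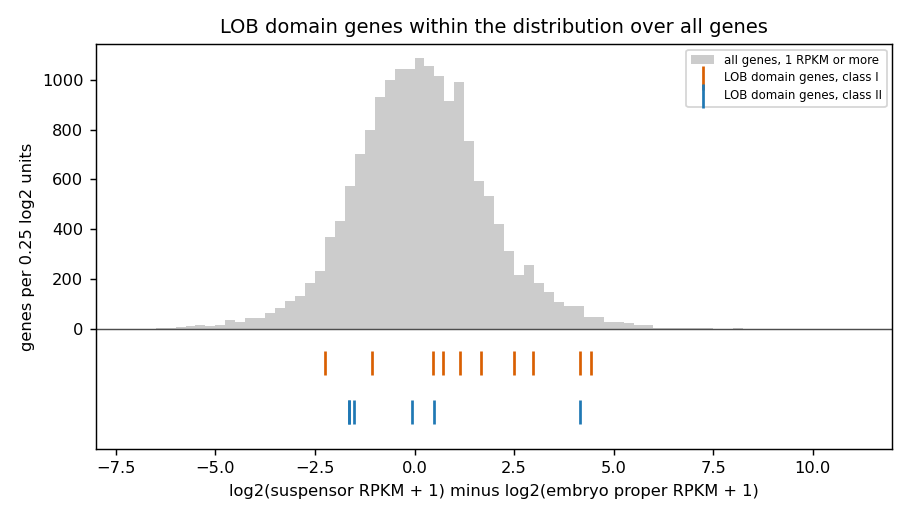
Histogram of the difference of log2(RPKM + 1), suspensor minus embryo proper, over the 16975 measured genes, with each of the 16 LBD genes as a tick below it (10 of class I, 6 of class II). Class I ticks run from -2.26 to 4.43 and class II ticks from -1.65 to 4.16, inside the range of all genes.

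The members are given by class, with LBD40 apart from the rest of class II. Class I genes of the embryo proper summed to 48.2 RPKM and those of the suspensor to 199. The class II sums were 327 and 335 RPKM, of which LBD40 made 283 and 271. Of the 10 measured class I genes, 6 were suspensor-high and 2 embryo-high, and the median difference was 1.41 log2 units. Of the 6 class II genes, 1 was suspensor-high and 3 were embryo-high, and the median was -0.79. The shares over all genes were 29.3% and 23.1%. Whether the classes differ was not tested.

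The lateral root genes were represented by LBD18 and, at a low level, LBD16. LBD18 (AT2G45420), which promotes lateral root emergence downstream of auxin, had 0.199 RPKM in the embryo proper, from 2 reads, while the suspensor had 24.9 RPKM of it, from 141 reads. It was 125-fold higher in the suspensor (33.9 to 1040), the widest ratio among the members listed in both libraries. In the suspensor LBD18 exceeded 71.0% of the listed genes, and in the embryo proper it exceeded 6.52%. LBD16 (AT2G42430), which acts in the asymmetric division of lateral root founder cells, stood at 0.639 and 1.70 RPKM, from 6 and 9 reads. Its 2.65-fold ratio towards the suspensor had an interval of 0.843 to 9.06, which includes equal levels. LBD13 (AT2G30340), also linked to lateral root formation, was listed in the suspensor alone at 0.345 RPKM, from 2 reads. LBD17, LBD29 and LBD33, relatives that act in roots or in callus, were listed in neither library.

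LBD19 (AT2G45410) is the direct neighbour of LBD18 on the chromosome, on the opposite strand with no protein-coding gene between them. It was not listed in the embryo proper and stood at 16.9 RPKM in the suspensor, from 70 reads. This level was 41.3-fold above the floor of 3 reads in the other library. Both genes of this neighbouring pair were thus high in the suspensor and near or below the floor in the embryo proper. The next gene on the LBD18 side, AHL22 (AT2G45430), had 25.5 RPKM in the embryo proper while the suspensor had 1.02.

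The embryo proper had 3.44 RPKM of LBD31 (AT4G00210) and the suspensor 23.9, a 6.95-fold excess (4.59 to 10.8). It rested on 29 and 114 reads. Its direct neighbour on the opposite strand is LBD30 (AT4G00220), known as Jagged Lateral Organs, a regulator of auxin transport and meristem genes. LBD30 was listed in neither library, so the neighbours of this second pair differed. LBD15 (AT2G40470), a gene of xylem cells and the shoot meristem, was not listed either.

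LBD20 (AT3G03760), known from roots as a jasmonate-dependent gene that favours infection by Fusarium, was the most abundant class I gene on the list. The embryo proper had 32.0 RPKM of it and the suspensor 104, from 334 and 613 reads. The suspensor value was 3.25-fold higher (2.84 to 3.72) and exceeded that of 91.6% of the listed genes. LBD20 was well above the floor in both regions, unlike LBD18 and LBD19.

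Of 5 genes known from pollen, 2 were listed. LBD25 (AT3G27650), which also takes part in auxin responses, had 0.983 RPKM in the embryo proper, from 6 reads, while the suspensor had 14.5, from 50 reads, 14.7-fold more (6.32 to 42.1). LBD36 (AT5G66870), the AS2-like gene ASL1 that acts in organ patterning beside AS2, had 3.92 and 9.89 RPKM, from 47 and 67 reads, with the suspensor 2.52-fold higher (1.71 to 3.74). Both were thus higher in the suspensor, LBD25 by the wider margin. LBD10, LBD22 and LBD27, of which LBD27 (Sidecar Pollen) controls divisions of the young microspore, were listed in neither library. Among 6 pollen markers, 3 were measured, and 2 of them were suspensor-high, where 29.3% of all measured genes were. These were MGH3 (AT1G19890) at 0 and 1.68 RPKM and ANX1 (AT3G04690) at 1.02 and 4.47. MGH3 rested on 5 reads and passed the filter through the suspensor alone. The other measured marker, HAP2 (AT4G11720), went towards the embryo proper by under 2-fold, from 35 and 10 reads. GEX2 (AT5G49150), below the filter, went the same way as HAP2, from 11 reads and 1 read. DUO1 and AGL66 were listed in neither library. All 6 pollen markers together summed to 2.58 RPKM for the embryo proper and 6.86 for the suspensor. The part of pollen in the LBD values was not tested.

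The vascular cambium genes were low, and those detected were higher in the embryo proper. LBD3 (AT1G16530, also ASL9), a cytokinin-induced gene of the cambium, had 3.79 RPKM in the embryo proper, from 24 reads, and was absent from the suspensor table. Its level was 4.52-fold above the floor of 3 reads there. LBD4 (AT1G31320), which acts with LBD3 in the cambium and at the phloem boundary, stood at 1.67 RPKM and 0.268 RPKM, from 11 reads and 1 read. Its 6.22-fold ratio towards the embryo proper had an interval of 0.904 to 268 and includes equal levels. LBD1 and LBD11, the other members of this cambial set, were listed in neither library.

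The boundary gene LOB itself (AT5G63090), which is made at the base of lateral organs and limits brassinosteroid there, was listed in neither library. Its floor of 3 reads was 0.421 RPKM for the embryo proper library and 0.744 for the suspensor library. AS2, which is not on the list and is close to LOB in sequence, stood at 1.05 and 3.01 RPKM, from 8 and 13 reads.

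Among class II genes, LBD40 was even between the regions. The embryo proper had 283 RPKM of LBD40 and the suspensor 271, from 2525 and 1368 reads, a 1.04-fold ratio with an interval of 0.977 to 1.12. It exceeded 96.4% of the genes listed for the embryo proper and 96.7% of those listed for the suspensor. Of the summed RPKM of the 34 genes, LBD40 made up 75.5% in the embryo proper, against 50.8% in the suspensor. Without it the sums were 91.9 and 263 RPKM, a 2.86-fold difference towards the suspensor.

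LBD41 (AT3G02550), a gene of the core response to low oxygen, was far lower, at 2.58 and 4.04 RPKM. It rested on 26 and 23 reads, and its 1.56-fold ratio towards the suspensor had an interval of 0.853 to 2.85. LBD40 and LBD41 are the closest pair of their branch, and per length LBD40 was the higher gene in both regions.

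LBD42 (AT1G68510) was the class II gene that was suspensor-high. The embryo proper had 1.79 RPKM of it and the suspensor 48.9, from 16 and 247 reads, a 27.3-fold excess (16.5 to 48.5). Its locus shares 329 bases with BBX14 (AT1G68520) on the opposite strand, and the sources used here do not say whether the counting used strand. BBX14 was not listed in the embryo proper and stood at 0.114 RPKM in the suspensor.

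The 3 repressors of anthocyanin and nitrate genes were all higher in the embryo proper. LBD39 (AT4G37540) stood at 35.4 RPKM there and 10.6 in the suspensor, from 325 and 55 reads, 3.34-fold higher (2.5 to 4.53). LBD38 (AT3G49940) stood at 2.11 RPKM, from 20 reads, and LBD37 (AT5G67420) at 1.88 RPKM, from 18 reads, and neither was listed in the suspensor. They were 3.77-fold and 3.39-fold above the floor of 3 reads in that library, leaving out their own counting error. LBD39 was the only 1 of the 3 above 10 RPKM in either region, and it was above that level in both.

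**Figure D3:**
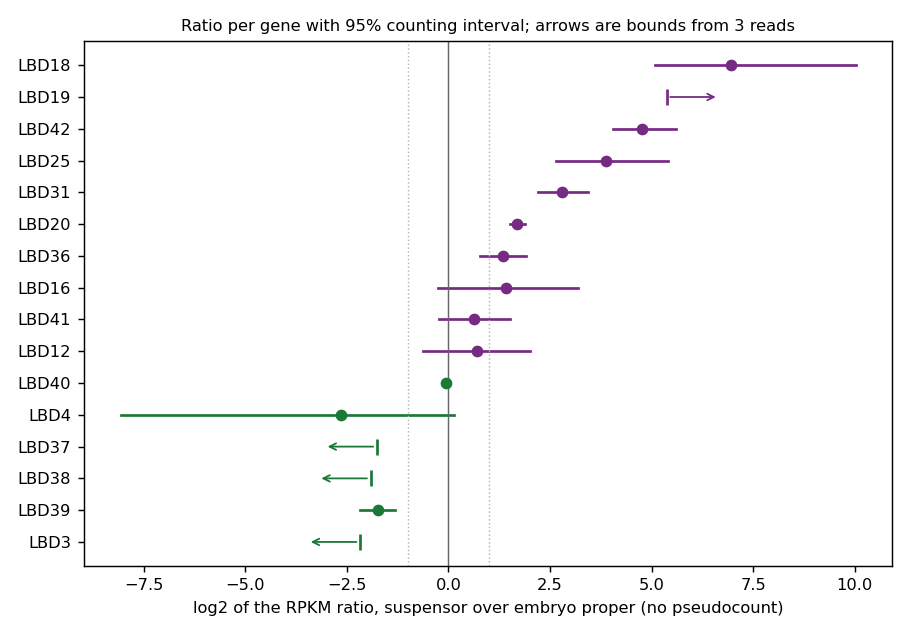
log2 of the RPKM ratio, suspensor over embryo proper, without a pseudocount, for the 16 measured LBD genes, 1 library per region. Lines are 95% counting intervals, arrows start at the bound given by 3 reads in the library that does not list the gene, and dotted lines mark 2-fold. The intervals of LBD4, LBD12, LBD16, LBD40 and LBD41 cross 0.

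The remaining members were low or unlisted. LBD12 (AT2G30130) stood at 1.62 and 2.63 RPKM, from 12 and 11 reads, with a ratio interval of 0.648 to 4.01. LBD7 (AT1G72980) was listed in the suspensor alone at 0.216 RPKM, from 1 read. The 16 members listed in neither library were LOB, LBD1, LBD2, LBD10, LBD11, LBD15, LBD17, LBD21, LBD22, LBD23, LBD24, LBD27, LBD28, LBD29, LBD30 and LBD33. For these, 3 reads correspond to 0.239 to 0.645 RPKM in the embryo proper and 0.423 to 1.14 RPKM in the suspensor. This floor is a chosen bound and not a detection limit, since LBD7 was listed from 1 read. Absence from a table does not exclude a low level at this depth. LBD23 and LBD24 have 99.2% identical coding sequences, and how reads with several matches were counted is not given, so their listing at 0 is uncertain. For the 16 members with at least 1 RPKM, the nearest coding sequence among the 42 family loci was 57.7% to 79.0% identical.

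Relatives by sequence were compared as pairs of mutual best protein identity among the 34 genes, of which there were 11. In 4 pairs both genes were measured. Their values are a description, since with 29.3% of all genes suspensor-high and 23.1% embryo-high, unrelated genes often share a side too. LBD37 and LBD38, with 79.4% identical proteins, were both higher in the embryo proper, as were LBD3 and LBD4 at 58.2%, although the interval of LBD4 includes equal levels. LBD19 and LBD31, at 53.4%, were both higher in the suspensor, and LBD40 and LBD41, at 66.1%, were both under 2-fold.

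In 2 pairs one gene had at least 1 RPKM and its relative was listed in neither library. These were LBD18 beside LBD30, with 66.2% identical proteins and 32 of 45 identical bases in the blocks printed above, and LBD25 beside LOB, at 57.9%. LBD18 and LBD30 differed most among the pairs, by 4.43 log2 units in their differences between regions. Both genes of the pairs LBD1 and LBD11, LBD17 and LBD29, and LBD23 and LBD24 were unlisted.

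**Figure D4:**
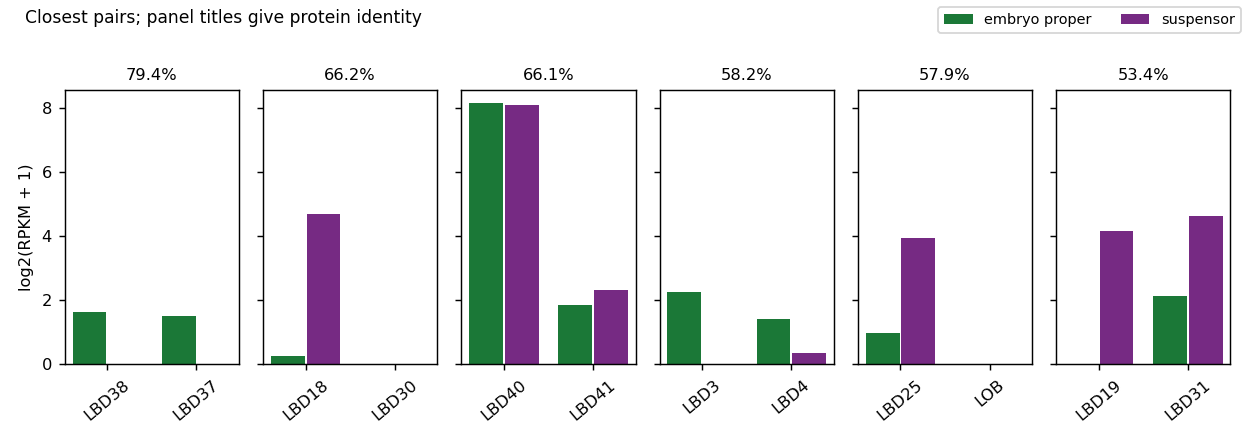
log2(RPKM + 1) in the embryo proper and the suspensor, 1 library each, for the 6 closest pairs in which at least 1 gene had at least 1 RPKM. Panel titles give the protein identity in percent, and a missing bar is a gene not listed in that library. The pairs of LBD18 with LBD30 and LBD25 with LOB have bars for 1 gene alone.

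Promoter windows of 250 bases before to 50 bases after the annotated start were searched on both strands for the auxin response element TGTCTC, for its variant TGTCGG and for GCGGCG, the motif bound by LOB. TGTCTC was present in 6 of the 34 windows, 17.6%, where 14.2% of 27443 windows of protein-coding genes held it. These were the windows of LBD1, LBD10, LBD11, LBD30, LBD33 and LOB, all genes listed in neither library. None of the windows of the 18 listed members held it, and sequence further upstream was not searched. Over all protein-coding genes, 13.7% of the windows of listed genes and 15.4% of those of unlisted genes held it. TGTCGG and GCGGCG were present in 0 of the 34 windows, and in 5.12% and 2.24% of all windows.

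Genes that act beside the family were counted from lists set by known roles, against the same 29.3% and 23.1% of all genes at 2-fold. Of 10 genes of the auxin and lateral root module, 6 were measured, 2 of them suspensor-high and 2 embryo-high, and the median difference was -0.40 log2 units. EXPA14 (AT5G56320), an expansin that LBD18 activates in roots, had 2.15 RPKM in the embryo proper, from 25 reads, while the suspensor had 591, from 3861 reads. MP (AT1G19850), an auxin response factor of the embryo, stood at 373 and 157 RPKM, and its repressor IAA12 (AT1G04550) at 93.2 and 49.1. LBD18 and EXPA14 thus shared their direction, while MP was embryo-high. ARF7 (AT5G20730) and ARF19 (AT1G19220), which drive LBD16 and LBD18 in roots, had 4.25 and 2.73 RPKM in the embryo proper, while the suspensor had 4.65 and 9.98. IAA14, PUCHI, GATA23 and EXPA17 were listed in neither library.

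Of 10 genes of the cambial module, 8 were measured, 5 of them embryo-high and 2 suspensor-high, and the median was -1.95. The embryo proper had 131 RPKM of AHP6 (AT1G80100), which dampens cytokinin signalling beside protoxylem, and the suspensor table did not list it. TMO6 (AT5G60200), which acts with LBD4 in vascular division, stood at 89.1 and 0.539 RPKM, and TMO5 (AT3G25710), a factor of vascular initial divisions, at 27.3 and 0.134 RPKM. The 2 suspensor-high genes were WOX4 (AT1G46480) and WOX14 (AT1G20700), homeobox genes that promote cambial division, at 1.10 and 1.31 RPKM in the suspensor and not listed in the embryo proper. The cambial receptor gene PXY (AT5G61480) had 0.453 and 1.29 RPKM. The list was thus divided, and LBD3 and LBD4 stood on the side of its larger part. Both had passed the filter through the embryo proper alone.

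Of 11 genes set beside LOB for organ boundaries, 6 were measured, 5 of them embryo-high and 0 suspensor-high, and the median was -1.77. The boundary factors CUC3 (AT1G76420) and CUC1 (AT3G15170) had 46.8 and 6.58 RPKM in the embryo proper, while the suspensor had 0.138 of CUC3 and did not list CUC1. AS1 (AT2G37630), the partner of AS2, stood at 34.5 and 12 RPKM. BOP1, LOF1 and JAG of this set were listed in neither library, and BOP2 and STM rested on 1 and 2 reads. BAS1 (AT2G26710), the brassinosteroid-inactivating enzyme that LOB activates, stood at 3.67 and 2.05 RPKM.

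Of 9 xylem genes, 1 was measured, CESA7 (AT5G17420), a cellulose synthase of secondary walls, at 3.22 and 1.58 RPKM, a difference of -0.71 log2 units. VND6 and VND7, the switches of xylem vessel fate that LBD18 and LBD30 act beside, were listed in neither library.

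Of 10 nitrate and anthocyanin genes, 5 were measured, 2 of them suspensor-high and 2 embryo-high, and the median was 0.95. The nitrate transporter NRT1.1 (AT1G12110) had 6.12 RPKM in the embryo proper against 34, and the pigment enzyme DFR (AT5G42800) had 0.137 against 10.2, whereas NIR1 (AT2G15620), nitrite reductase, had 14.1 against 5.69. The list was thus divided. LBD37, LBD38 and LBD39 were all embryo-high, but LBD37 and LBD38 passed the filter through the embryo proper alone. Any link between these genes and the list was not tested. The anthocyanin regulators MYB75 and MYB90 were listed in neither library, and most seed coat markers beside DFR were higher in the suspensor, as given above.

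Of 14 low oxygen genes, 10 were measured, 2 of them suspensor-high and 2 embryo-high, and the median was 0.22. SUS1 (AT5G20830), a sucrose synthase, had 0.778 RPKM in the embryo proper against 60.9. PCO2 (AT5G39890), an oxygen-sensing cysteine oxidase, stood at 35.2 and 35.8 RPKM, and HRA1 (AT3G10040), a damper of the response, at 27.1 and 17.7. LBD41 was among the members under 2-fold, as were 6 of these 10 genes, where 8086 of all 16975 measured genes were.

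**Figure D5:**
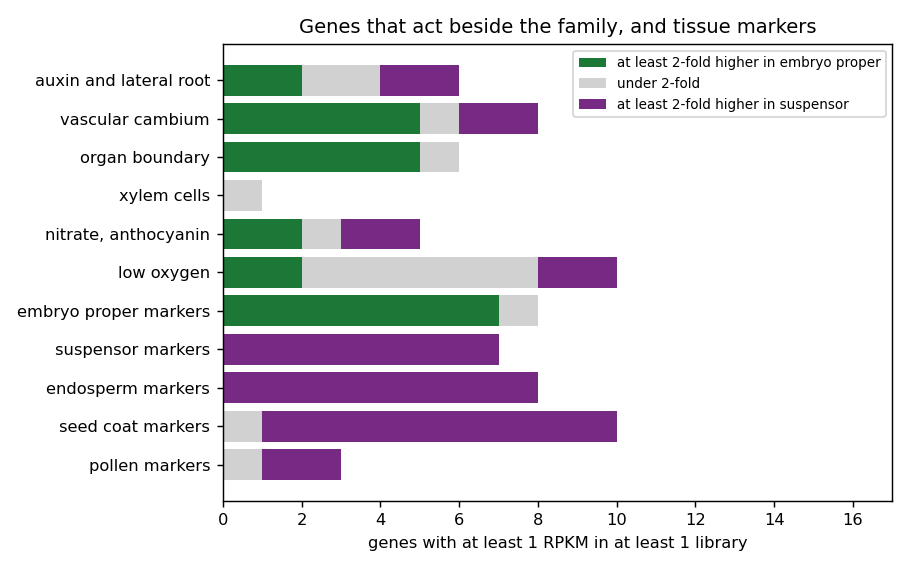
Number of measured genes in each list, divided into embryo-high, under 2-fold and suspensor-high genes on the scale of log2(RPKM + 1), from 1 library per region. The organ boundary list has 5 in the first class and 0 in the last, and endosperm markers have all 8 in the last.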

How the data were processed

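The authors deposited 1 table per library with RPKM to 3 decimals, per the file headers, and a gene absent from a table was taken as 0. HISAT2 2.0.6, HTSeq 0.6.1 and TAIR10 are named, with no roles, per the submitters' processing notes. The sources used here do not give strand, gene length or the handling of reads with several matches. Per the labels' protocols, 15 ng of RNA was amplified and the library enriched by 15 PCR cycles.

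Reads were recovered with the longest RefSeq coding length (TAIR10.1) by finding the step that turns low values into whole numbers, a procedure tested on simulated data. Of values from 0.2 RPKM up to 15 reads in genes with 1 model, 96.6% and 96.9% were within 0.05 of a whole read. Medians were 145 and 88 reads per listed gene. As a share of all reads, RPKM falls for every gene where a few transcripts are very abundant.

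Differences are log2(RPKM + 1), suspensor minus embryo proper, which understates those of low genes. Folds are ratios of RPKM with exact (Clopper-Pearson) intervals at 95% or, against 0 reads, bounds from a floor of 3 reads in that library. These bounds leave out the counting error of the library that lists the gene, so they are not limits of an interval. Alternatives were other pseudocounts, filters, scalings and thresholds. All members with at least 1 RPKM are named, and up to 3 genes of a list by level, while the other list genes named were chosen after their values were seen, as were the members whose cysteine blocks are printed. The members and lists were chosen with earlier results of these data known. BZIP59, PEAR1, VCK1 and LAT52 were left out because symbol and locus did not match in RefSeq. The naming rule also called for protein sequences of a few members, and the coding sequence of the cysteine block is printed in their place. No coordinates are given because the assembly names differ. Translated coding sequences were aligned with Biopython 1.88 and BLOSUM62, with identity per residue of the shorter protein. Python 3.11.15 and SciPy 1.17.1 were used.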

Additional observations from a re-analysis of the deposited data

How the results depend on the processing

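The count of 7 suspensor-high members was 5 to 8 under other pseudocounts, filters, scalings and the 4-fold threshold. It was 12 with the 8 other family loci, a set added after the data were seen. The count of 5 embryo-high members was 1 with a pseudocount of 5 RPKM, with a filter of 10 RPKM and at 4-fold. Under alternatives added after the data were seen it was 2 among members listed in both libraries, and 3 both with unlisted members at 3 reads and at 20 or more reads over both libraries. The median difference of 0.61 log2 units kept its sign. It was 0.97 and 0.25 with pseudocounts of 0.1 and 5 RPKM, 0.48 with no filter, 2.73 with a filter of 10 RPKM, 0.47 after scaling to a median of 0 and 0.52 after upper quartile scaling. Among the added alternatives it was 0.93 for members in both libraries, 1.15 at 20 reads, 0.75 without the 10 most abundant genes and 1.40 with the other loci. For the 12 members with reads in both libraries, 67 of 72 values under another pseudocount, scaling, total or floor moved by less than the reach of the counting interval to either side, on average, and 5 by more, and 0 past 2-fold changed sign. The 4 members with 0 reads in 1 library have no such interval, and 0 of their 24 values changed sign. With a pseudocount of 5 RPKM, LBD3, LBD4, LBD36, LBD37 and LBD38 came under 2-fold, and with 0.1 RPKM LBD16 passed it at 1.28. With unlisted members at 3 reads, LBD37 and LBD38 came to -0.89 and -1.0. No paired analysis was possible because each group has 1 library. Depth limits the members with few reads, such as LBD18 in the embryo proper with 2.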

Other observations

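RefSeq names 8 loci of the LBD family that were not on the list described above, and their values were looked up after those of the list were known. Of these, 6 were measured, 5 of them suspensor-high and 0 embryo-high, against 29.3% and 23.1% of all genes. LBD5, LBD26 and LBD32 passed the filter through the suspensor alone, so this count rests partly on the filter. The embryo proper had 23.4 RPKM of LBD35 (AT5G35900) and the suspensor 151, from 185 and 676 reads, a 6.46-fold excess (5.49 to 7.65) that places it above LBD20 in that region. LBD8 (AT2G19510) stood at 2.60 and 16.1 RPKM, 6.19-fold higher (3.20 to 12.9). LBD5 (AT1G36000) stood at 0.213 and 11.3 RPKM, from 1 read and 30 reads, 53.1-fold higher (8.82 to 2165). LBD26 (AT3G27940) and LBD32 (AT4G22700) were listed in the suspensor alone, at 3.91 and 2.16 RPKM, 7.66-fold and 5.31-fold above a floor of 3 reads. AS2 was the sixth, under 2-fold, and LBD9 and LBD14 were listed in neither library. Together the 8 loci summed to 27.3 RPKM for the embryo proper and 188 for the suspensor. Most measured markers of endosperm and of seed coat were also suspensor-high, though many passed the filter through the suspensor alone. The part of these tissues in the values was not tested.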
